A study of Mus musculus with 16 samples.

Results

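The 4 Id genes and 5 genes of the bone morphogenetic protein (BMP) pathway, the ligands Bmp4 and Bmp7, the receptor Bmpr1a and the inhibitors Smad6 and Bambi, were followed across cultured mouse pluripotent stem cells. They were taken by symbol from the gene column of a count table of RNA sequencing reads, and were 9 of its 34042 rows. All 9 passed the filter on low counts and were among the 18555 genes tested.

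The table was read for 16 libraries in 4 culture groups. Formative stem (FS) cells were grown in A3XR medium, epiblast stem cells (EpiSCs) in AF or in AFX medium, and embryonic stem (ES) cells in 2iL medium. In the usual meaning of these codes, A is activin, F is FGF2, X is the tankyrase inhibitor XAV939, which lowers Wnt signalling, and R is an inverse agonist of the retinoic acid receptor. 2iL holds inhibitors of MEK and GSK3 with the cytokine LIF. The labels name the strain, sex or genotype of no line. FS cells came from 2 lines, 5ar1 at passages 10, 12 and 14 and 5ar3 at passages 4, 5 and 12, so that n was 6. The AF EpiSCs were line AF32 at passages 13, 14 and 15, the AFX EpiSCs were line AFX6 at passages 5, 8 and 12, and the ES cells were line E14IV-C at passages 12, 13, 15 and 20. Libraries of a line are thus passages of 1 culture. The p-values measure the spread of libraries about their group mean, estimated over all groups together. In FS cells that spread also holds the difference between the 2 lines, except in the test of the lines, where each line has its own mean. No line was grown in 2 media, so medium and line cannot be told apart in any comparison of groups. Only FS cells have 2 lines.

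BMP ligands bind paired type I and type II serine/threonine kinase receptors, which phosphorylate SMAD1, SMAD5 and SMAD9. With SMAD4 these enter the nucleus and activate target genes, among which the Id genes are the best known. Id proteins have a helix-loop-helix domain but no DNA-binding region, and hold E proteins such as TCF3, TCF4 and TCF12 away from DNA. In mouse ES cells BMP4 with LIF is known to sustain self-renewal through Id genes, and in the early embryo BMP4 from the extraembryonic ectoderm patterns the epiblast.

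The library totals ran from 22069338 to 33290250 counts. The mitochondrial ribosomal RNA mt-Rnr2 took between 9.96% and 38.1% of them. The highest share was in the ES library of passage 12, against 17.7% to 19.0% in the other ES libraries, and results that changed without that library are named beside them. Levels are given in CPM, counts relative to the library size on edgeR's TMM scale, which limits the effect of a few very abundant RNAs. Of the markers fixed for each cell type, the naive and epiblast ones set ES cells apart from the other groups. The summed level of the naive markers Zfp42, Klf4, Esrrb and Tfcp2l1 was 2087 to 3278 CPM in ES cells and at most 12.5 CPM elsewhere. That of Otx2, Fgf5 and Pou3f1 was 187 to 338 CPM outside ES cells against 8.78 to 19.1 CPM in them. It was 187 to 326 CPM in FS cells, 197 to 232 CPM in AFX and 215 to 338 CPM in AF EpiSCs, so these groups overlapped. The core pluripotency markers Pou5f1, Sox2 and Nanog summed to 1618 to 1881 CPM in ES cells and 579 to 1454 CPM in FS cells. They summed to 974 to 1063 CPM in AFX and 749 to 808 CPM in AF EpiSCs.

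Markers of other cell types also differed between the groups. The 4 extraembryonic endoderm markers Gata4, Gata6, Sox7 and Sox17 summed to 34.3 to 104 CPM in AF EpiSCs and 24.8 CPM in the AFX library of passage 12, against 0.373 to 0.500 CPM in the other AFX libraries, 0.351 to 1.92 CPM in FS cells and 0.723 to 1.87 CPM in ES cells. Sox17, Gata6 and Gata4 carried that sum, while Sox7 had 1 to 5 counts in each AF library. The 3 primitive streak markers T, Mixl1 and Eomes summed to 111 to 299 CPM in AF EpiSCs and at most 46.7 CPM elsewhere. The 2 neuroectoderm markers Sox1 and Pax6 summed to 21.9 to 32.5 CPM in line 5ar3 and 2.20 to 2.54 CPM in line 5ar1. Other lists set ES cells apart. The 6 fibroblast or feeder markers summed to 0.542 to 1.11 CPM in ES cells and 11.1 to 58.5 CPM elsewhere, led by Thy1 in FS cells and by Col1a2 in AF EpiSCs, with Lum at 4 counts or fewer in every library. The 4 surface ectoderm or amnion markers summed to 10.5 to 22.4 CPM in ES cells and 60.9 to 455 CPM elsewhere, nearly all from Krt8 and Krt18. Tfap2a of that list went the other way. Its mean was 1.94 CPM in ES cells, 0.168 CPM in FS cells, 0.0469 CPM in AFX and 0.0646 CPM in AF EpiSCs. Krt5 had at most 3 counts in any library. The 4 trophoblast markers summed to 44.7 to 62.6 CPM in ES cells and at most 4.61 CPM elsewhere, with Tfap2c at 52.4 CPM on average in ES cells and Elf5 at 0 counts in every ES library. In bulk RNA, fewer cells of a type and less RNA per cell cannot be told apart, and the part of these cells in the results was not tested.

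The genes lie on several chromosomes of the mouse genome (GENCODE M21 models on GRCm38, which is the mm10 build of the submitters' processing notes). Id1 is at chr2:152736251-152737410 on the plus strand and Bmp7 at chr2:172868012-172940321 on the minus strand. Id2 is at chr12:25093799-25097140 (minus), Id3 at chr4:136143497-136145755 (plus) and Id4 at chr13:48261228-48266026 (plus). Bmp4 is at chr14:46383520-46390669 (minus), Bmpr1a at chr14:34410734-34503341 (minus) and Smad6 at chr9:63953076-64022059 (minus). Id4, Bmp4 and Bmpr1a overlap noncoding or coding genes of the opposite strand. The 3 such genes found in the table, A330033J07Rik, Gm15222 and Gm17110, had at most 6 counts in any library, so they could add little to the values below.

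The Id4 promoter is shown because Id4 had the largest fold range of group means among the 9 genes. RefSeq promoters of build GRCm38.p6 were read for 6 of the genes, and the 250 bases before each RefSeq start were searched on both strands for the GC-rich element GGCGCC and the element GGAGCC, both bound by SMAD1 and SMAD5 complexes, and for the SMAD element CAGAC. The Id4 window, chr13:48260866-48261115 on the plus strand, holds GGCGCC from base -148 and GGAGCC from base -13 relative to the RefSeq start, shown in capitals, and lies in no annotated exon.
Id4: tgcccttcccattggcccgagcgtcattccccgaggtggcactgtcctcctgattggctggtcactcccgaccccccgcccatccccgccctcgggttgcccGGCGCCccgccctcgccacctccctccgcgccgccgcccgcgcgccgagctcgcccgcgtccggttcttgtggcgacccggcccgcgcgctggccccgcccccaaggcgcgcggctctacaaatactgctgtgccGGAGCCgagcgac
Exons of GENCODE transcripts cover 161 bases of the Id2 window, 141 of the Bmpr1a window and all 250 of the Id3 window. The Id3 motifs thus lie within annotated exon. For Id2 and Id3 only the motifs are shown, with 10 bases on each side, and the coordinates are those of the whole stretches shown. Id2 holds both a GGCGCC in chr12:25096308-25096333 and a GGAGCC in chr12:25096165-25096190, on the minus strand. Id3 holds 1 GGAGCC, read as GGCTCC on the gene's strand, in chr4:136143625-136143650 and 2 CAGAC in chr4:136143645-136143669 and chr4:136143744-136143768, the second read as GTCTG.
Id2 first: aggccccctgGGCGCCcagcgcacac
Id2 second: atgatggacgGGAGCCcttccaccaa
Id3 GGAGCC: tcgcatccgaGGCTCCgctgtcctcg
Id3 CAGAC, upstream: tcctcggcgtCAGACcagcctaagg
Id3 CAGAC, downstream: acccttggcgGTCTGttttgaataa
Among all 32851 promoters of that length, 9.59% hold GGCGCC, 26.0% hold GGAGCC and 42.2% hold CAGAC. The matches describe letters only. Of the other windows read, that of Bmpr1a holds 1 GGCGCC, that of Smad6 2 GGAGCC and that of Bmp4 1 GGAGCC. The 6 windows are 62.8% to 78.8% G and C. Of the 6, only Id2 and Id4 hold both GC-rich elements, and the part of any element in the levels was not tested.

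**Figure D1:**
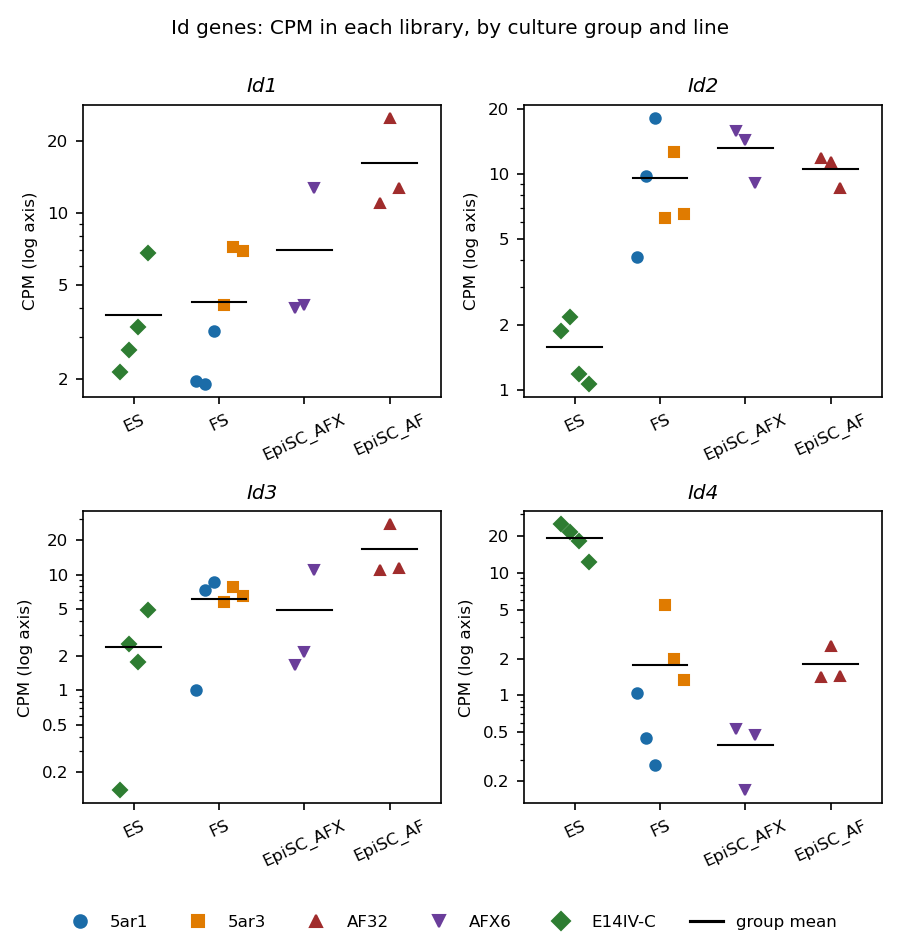
Level of each Id gene in every library (CPM, log axis) by culture group, with a symbol for each line and a bar at the group mean. ES libraries are lowest for Id2 and highest for Id4 with no overlap, while Id1 and Id3 are highest in AF EpiSCs.

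Counts of the 9 genes that passed the test came to 4 between FS and ES cells (62.8% of all tested genes passed there), 3 between AFX EpiSCs and ES cells (54.7% of all genes), and 6 between AF EpiSCs and ES cells (56.7% of all genes). The test was edgeR's quasi-likelihood test with Benjamini-Hochberg adjustment over all tested genes, passed at an adjusted p under 0.05. These 3 comparisons share the ES libraries, and a member count near these backgrounds says nothing particular about BMP genes. Of all genes, 32.9% were higher and 29.9% lower in FS than in ES cells, where 2 of the 9 were higher and 2 lower. In AF EpiSCs 29.7% of all genes were higher and 27% lower than in ES cells, against 5 and 1 of the 9. None of the 9 passed between FS cells and AFX EpiSCs, where 5% of all genes did and where Id4 alone had an unadjusted p under 0.05. Between FS cells and AF EpiSCs 2 passed (16.6% of all genes), between AFX and AF EpiSCs none did (4.26% of all genes, with Id1, Id4, Bmp7 and Bambi at an unadjusted p under 0.05), and between the FS lines 5ar1 and 5ar3 2 did (3.88% of all genes). The median log2 fold change of the 9 genes was 0.16 for FS over ES cells (0.04 over all tested genes), 0.06 for AFX EpiSCs over ES cells (0.01) and 0.78 for AF EpiSCs over ES cells (0.01).

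Id2 was higher in every group than in ES cells. This gene encodes an inhibitor of E proteins that is also known in many differentiating lineages. Id2 stood at 1.06, 1.18, 1.87 and 2.17 CPM in the 4 ES libraries, at 4.11 CPM (lowest), 8.15 CPM (median) and 18.2 CPM (highest) in FS cells, at 8.60, 11.4 and 11.8 CPM in AF EpiSCs and at 9.14, 14.4 and 15.9 CPM in AFX EpiSCs. Every library outside ES cells was above every ES library, and the other groups overlapped one another. Of all tested genes 46.3% separated FS from ES cells in this way, against 3 of the 9. For AF EpiSCs and ES cells it was 62.3% against 5 of the 9, and for AFX EpiSCs and ES cells 58.7% against 4. Between FS cells and AF EpiSCs it was 20.4% against 3. Id2 was 6.13-fold higher in FS than in ES cells (log2 fold change 2.62 ± 0.39, SE, edgeR adjusted p = 1.63e-05), 8.41-fold higher in AFX EpiSCs (3.07 ± 0.43, adjusted p = 1.06e-05) and 6.78-fold higher in AF EpiSCs (2.76 ± 0.42, adjusted p = 3.02e-05). All 3 calls held in each of the 16 fits that left out 1 library. Within FS cells Id2 varied most in line 5ar1, with 4.11, 9.78 and 18.2 CPM.

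Id4 went the other way. Id4, the member of the family best known from neural precursors, was at 12.3, 18.0, 21.4 and 24.7 CPM in ES cells. FS cells held 0.271 CPM (lowest), 1.18 CPM (median) and 5.49 CPM (highest), AF EpiSCs 1.41, 1.45 and 2.52 CPM, and AFX EpiSCs 0.169, 0.472 and 0.536 CPM. The lowest ES library was thus above all other libraries. Id4 was 10.9-fold lower in FS than in ES cells (log2 fold change -3.45 ± 0.56, SE, edgeR adjusted p = 4.38e-05), 10.6-fold lower in AF EpiSCs (-3.41 ± 0.74, adjusted p = 0.00077) and 48.2-fold lower in AFX EpiSCs (-5.59 ± 0.85, adjusted p = 2.97e-05). Each call held whichever library was left out.

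Among the groups outside ES cells Id4 passed in no comparison of culture groups, but several alternatives gave a call. All 3 AFX libraries lay below all 3 AF libraries (33.9% of all tested genes separated these groups in this way), with a log2 fold change of -2.18 (95% interval -3.91 to -0.46, edgeR adjusted p = 0.157). The difference passed when the FS library 5ar3 passage 4 was left out (adjusted p = 0.0407), under DESeq2 (adjusted p = 0.0489) and with only these groups (adjusted p = 0.0178). With passage as a covariate it was -3.43 (edgeR adjusted p = 0.00753). Against AFX EpiSCs, FS cells had a log2 fold change of 2.15 (95% interval 0.55 to 3.74, adjusted p = 0.119), which passed without the FS library 5ar1 passage 14 (adjusted p = 0.0458), under DESeq2 (adjusted p = 0.0182) and with passage as a covariate (adjusted p = 0.0416). With line 5ar3 alone the FS to AFX difference was 2.91 (adjusted p = 0.00389), and with line 5ar1 alone 0.55 (adjusted p = 0.653).

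Id1 and Id3 were highest in AF EpiSCs. Both are classical direct targets of BMP and SMAD1/5 signalling in ES cells. Id1 was at 2.14, 2.66, 3.33 and 6.76 CPM in ES cells, at 1.91 CPM (lowest), 3.64 CPM (median) and 7.21 CPM (highest) in FS cells, at 10.99, 12.7 and 24.97 CPM in AF EpiSCs and at 3.999, 4.10 and 12.7 CPM in AFX EpiSCs. Every AF library was above every FS library (20.4% of all tested genes separated these groups) and above every ES library. The AFX library of passage 12 reached the AF range and the other 2 AFX libraries did not. Id1 was 4.32-fold higher in AF EpiSCs than in ES cells (log2 fold change 2.11 ± 0.54, SE, edgeR adjusted p = 0.00297) and 3.86-fold lower in FS cells than in AF EpiSCs (-1.95 ± 0.47, adjusted p = 0.00865). The second call was lost without the AF library of passage 14, the highest for Id1 (log2 fold change -1.50, adjusted p = 0.0811), with line 5ar3 alone (-1.42, adjusted p = 0.065) and with passage as a covariate (-1.64, adjusted p = 0.0709). FS and ES cells did not differ in Id1 beyond the error, with a log2 fold change of 0.16 and a 95% interval from -0.82 to 1.14.

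For Id3 the 4 ES libraries had 0.138, 1.78, 2.53 and 4.97 CPM, the lowest of them resting on 2 counts in the passage 12 library. FS cells had 1.001 CPM (lowest), 6.94 CPM (median) and 8.63 CPM (highest), AF EpiSCs 10.96, 11.3 and 27.1 CPM, and AFX EpiSCs 1.64, 2.14 and 10.96 CPM. AF EpiSCs again lay above all FS libraries (20.4% of all tested genes separated these groups) and above all ES libraries. The AFX library of passage 12 was again the only one of its group in the AF range. Id3 was 6.81-fold higher in AF EpiSCs than in ES cells (log2 fold change 2.77 ± 0.79, SE, edgeR adjusted p = 0.00679). Its difference between FS and ES cells did not pass (1.36 ± 0.69, 95% interval -0.11 to 2.82, adjusted p = 0.0994), but passed without the lowest FS library, 5ar1 passage 10 (adjusted p = 0.039), or without the highest ES library, passage 20 (adjusted p = 0.0384). With passage as a covariate it passed at 2.35 (edgeR adjusted p = 0.0252). Although no FS library overlapped the AF range, the FS to AF difference did not pass either (-1.41 ± 0.68, adjusted p = 0.173).

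The library AFX6 passage 12 therefore carried 3.11 to 3.19 times the Id1 level, and 5.13 to 6.67 times the Id3 level, of the other 2 AFX libraries, while its Id2 level was the lowest of the group. The same library had the endoderm marker sum of 24.8 CPM given above, against 0.373 and 0.500 CPM. The AF library of passage 14, highest for Id1 and Id3, likewise had the highest sums of its group for the endoderm markers (104 CPM) and the primitive streak markers (299 CPM). Whether these cells carry the Id1 and Id3 transcripts was not tested. Leaving out the AFX library of passage 12 moved the AFX to ES difference of Id1 from 0.89 to 0.11 and that of Id3 from 1.03 to -0.35 on the log2 scale, and neither passed before or after.

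**Figure D2:**
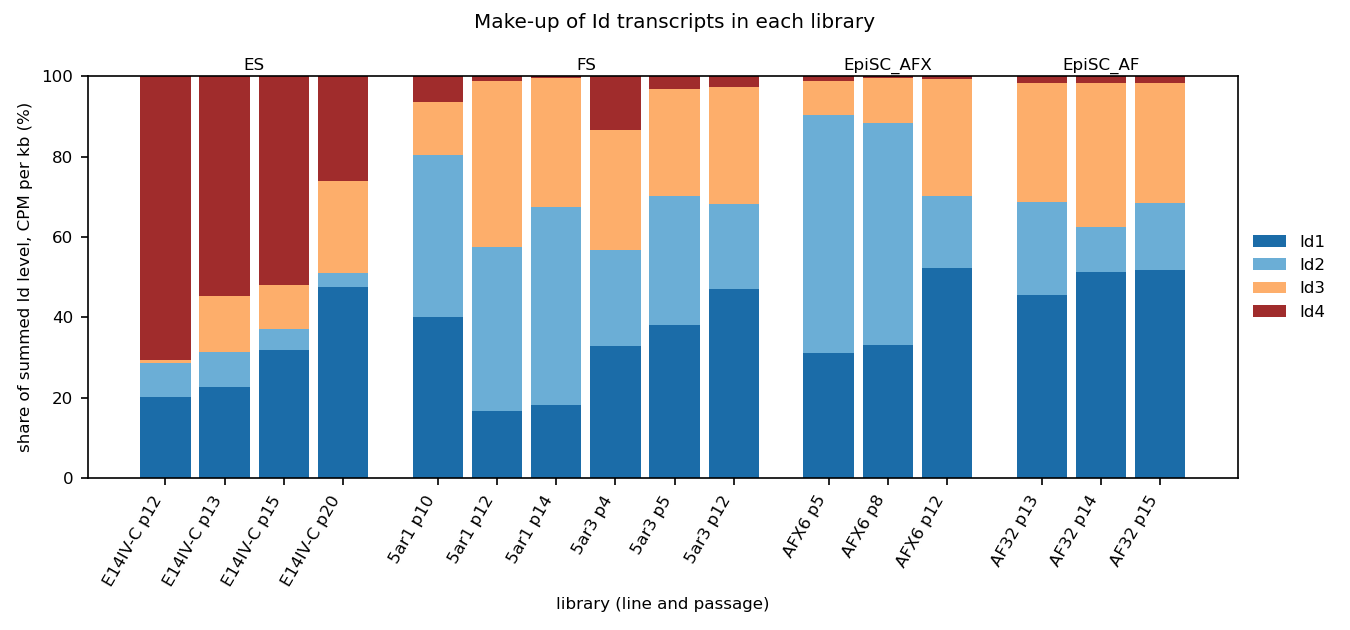
Share of each Id gene in the summed Id level of a library (CPM per kilobase of exon, percent), libraries ordered by group, line and passage. Id4 is the largest part of 3 of the 4 ES libraries and at most 13.3% of any other library.

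Per length, which allows levels to be compared between genes, the make-up of the Id transcripts differed between the groups. The values are shares of the summed CPM per kilobase of exon. Id4 made up 50.8% ± 18.4 (SD, n = 4) of the Id transcripts in ES cells, 4.54% ± 4.76 (n = 6) in FS cells, 1.70% ± 0.124 (n = 3) in AF EpiSCs and 0.753% ± 0.449 (n = 3) in AFX EpiSCs. Id1 was the largest share in each AF library, 49.5% ± 3.48 on average, followed by Id3 with 31.7% ± 3.71. In AFX EpiSCs Id2 took 44.1% ± 22.8, which was 59.2% and 55.3% at passages 5 and 8 and 17.9% at passage 12. FS cells had no leading Id gene, with 32.2% ± 12.3 Id1, 34.5% ± 10.9 Id2 and 28.7% ± 9.10 Id3. In line 5ar1 Id2 took 43.4% ± 5.21 (n = 3), and in line 5ar3 Id1 took 39.4% ± 7.22 (n = 3). The summed Id level itself was 9.02 to 12.2 CPM per kilobase in ES cells, 4.21 to 16.3 in FS cells, 10.7 to 20.98 in AFX EpiSCs and 20.8 to 42.0 in AF EpiSCs, so ES cells lay within the FS range.

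**Figure D3:**
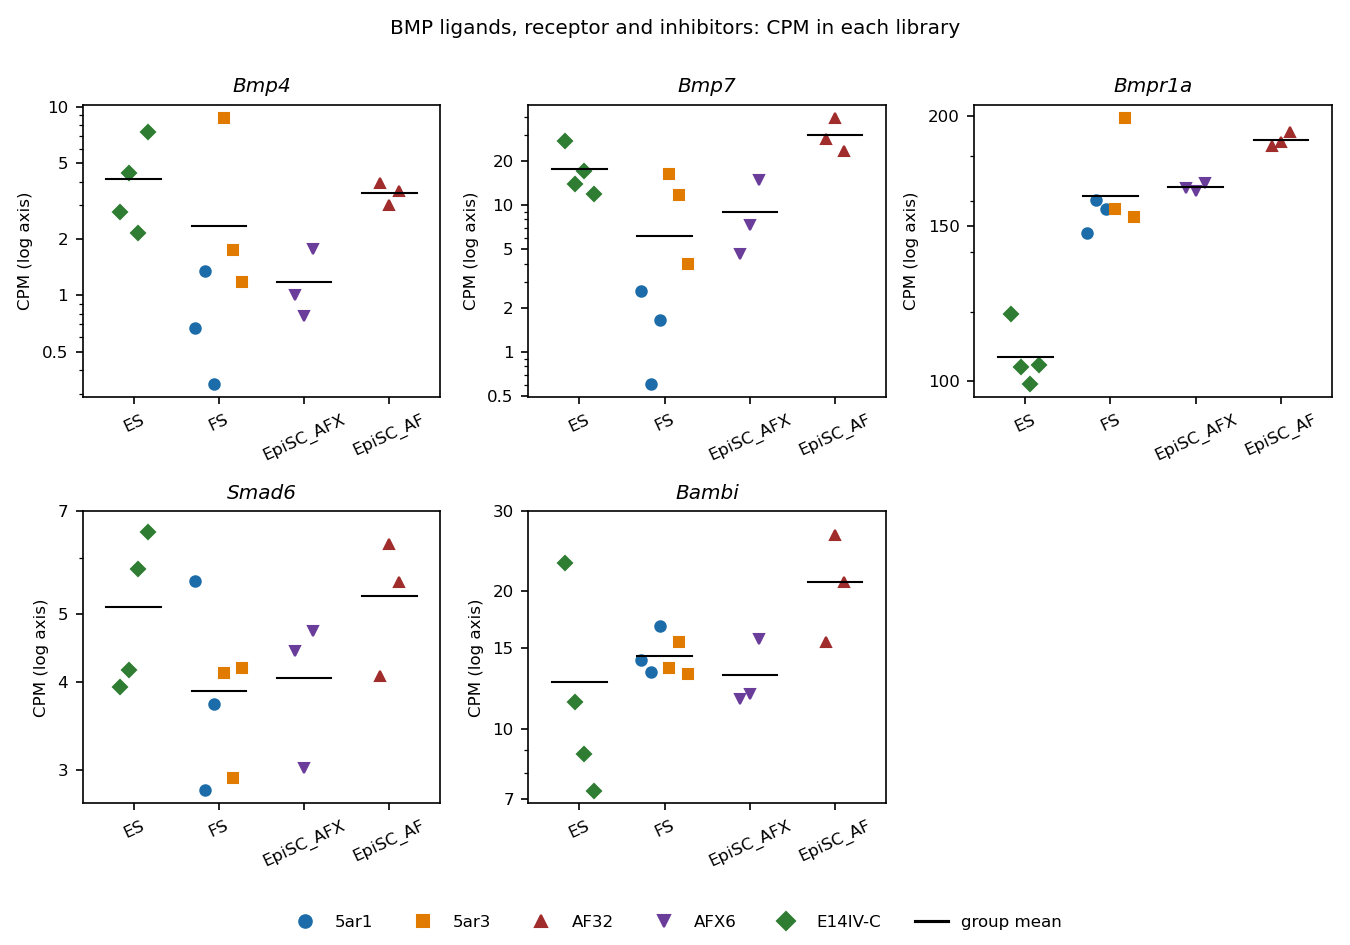
Level of Bmp4, Bmp7, Bmpr1a, Smad6 and Bambi in every library (CPM, log axis) by culture group, with a symbol for each line and a bar at the group mean. Bmpr1a separates ES cells from all other libraries, and the 3 libraries of line 5ar1 are the lowest of all for Bmp7.

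Among the ligands, Bmp7 was lowest in FS line 5ar1 and highest in AF EpiSCs. It encodes a BMP of the 60A group, which includes BMP5, BMP6 and BMP8. Bmp7 was at 11.9, 14, 17.1 and 27.5 CPM in ES cells, at 23.3, 28.2 and 39.1 CPM in AF EpiSCs and at 4.64, 7.35 and 14.9 CPM in AFX EpiSCs. Line 5ar1 had 0.606, 1.66 and 2.59 CPM, and line 5ar3 had 3.96, 11.8 and 16.3 CPM. All FS libraries were below all AF libraries (20.4% of all tested genes separated these groups), while only the passage 4 library of 5ar3 reached the ES range. Bmp7 was 4.93-fold lower in FS cells than in AF EpiSCs (log2 fold change -2.30 ± 0.67, SE, edgeR adjusted p = 0.0267). The call was lost without the AF library of passage 13, 14 or 15 (adjusted p = 0.0703, 0.105 and 0.0543).

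Between FS and ES cells Bmp7 was 2.88-fold lower in FS cells, at the edge of the threshold (log2 fold change -1.52 ± 0.63, SE, edgeR adjusted p = 0.0464). Only 5 of the 16 fits that left out 1 library kept this call, with log2 fold changes from -2.12 to -1.23 and adjusted p from 0.00688 to 0.134, the highest without the ES library of passage 12. Line 5ar1 alone gave -3.46 (adjusted p = 3.54e-05) and line 5ar3 alone -0.71 (adjusted p = 0.183). AFX EpiSCs against ES cells gave -0.97 (95% interval -2.61 to 0.66) and AF EpiSCs against ES cells 0.78 (95% interval -0.79 to 2.35), neither of which passed.

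Bmp4, the BMP ligand most used in stem cell culture, passed in no comparison with a mean per group. It was at 2.14, 2.76, 4.43 and 7.31 CPM in ES cells, at 3.01, 3.57 and 3.92 CPM in AF EpiSCs and at 0.780, 0.9997 and 1.75 CPM in AFX EpiSCs. Line 5ar1 had 0.339, 0.667 and 1.34 CPM and line 5ar3 had 1.18, 1.74 and 8.69 CPM, the last in the passage 4 library. That single library was above every other library of the series, and the other 5 FS libraries were below every ES library. Without it, the FS to ES log2 fold change moved from -0.84 (edgeR adjusted p = 0.261) to -1.99 (adjusted p = 0.00073), and the FS to AF change from -0.59, which did not pass, to -1.74 (adjusted p = 0.0138). The FS to ES change also passed when each line had its own mean (-1.25, edgeR adjusted p = 0.0374) and for line 5ar1 alone (-2.41, adjusted p = 0.000868). AFX EpiSCs lay wholly below ES cells (58.7% of all tested genes separated these groups) without a call (-1.82, 95% interval -3.54 to -0.10, edgeR adjusted p = 0.0684). The difference passed when 5ar3 passage 4 or 5ar1 passage 14 was left out (edgeR adjusted p = 0.00586 and 0.0428). It also passed under DESeq2 (adjusted p = 0.0309). With edgeR it passed with only these groups (adjusted p = 0.00999) and with passage as a covariate (-2.71, adjusted p = 0.0261).

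Bmpr1a, the type I receptor for BMP2 and BMP4, was the most abundant of the 9 genes. Its level was 99.4, 104, 104 and 119 CPM in ES cells, 147 CPM (lowest), 157 CPM (median) and 199 CPM (highest) in FS cells, 164, 166 and 168 CPM in AFX EpiSCs and 185, 187 and 191 CPM in AF EpiSCs. ES cells were below all other libraries. Bmpr1a was 1.52-fold higher in FS than in ES cells (log2 fold change 0.60 ± 0.10, SE, edgeR adjusted p = 4.88e-05), 1.55-fold higher in AFX EpiSCs (0.64 ± 0.12, adjusted p = 0.000168) and 1.76-fold higher in AF EpiSCs (0.82 ± 0.12, adjusted p = 1.24e-05). The calls held whichever library was left out, but no change exceeded a log2 of 1 in a test against that size. FS cells and AFX EpiSCs differed by -0.03 with a 95% interval from -0.26 to 0.19.

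Of the inhibitors, Smad6 passed in no comparison and Bambi in 1. Smad6, an inhibitory SMAD that blocks type I BMP receptors and is itself a BMP target, ranged from 2.80 to 6.55 CPM over all libraries, with means of 5.11 ± 1.27 CPM (SD, n = 4) in ES cells, 3.89 ± 1.01 CPM (n = 6) in FS cells, 4.06 ± 0.912 CPM (n = 3) in AFX EpiSCs and 5.30 ± 1.12 CPM (n = 3) in AF EpiSCs. All groups overlapped and no comparison passed. The 95% interval of the FS to ES difference ran from -0.90 to 0.10 on the log2 scale.

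Bambi, a pseudoreceptor without a kinase domain that blocks BMP and TGF-beta receptors, was at 7.31, 8.79, 11.4 and 23.1 CPM in ES cells, at 13.2 CPM (lowest), 13.9 CPM (median) and 16.8 CPM (highest) in FS cells, at 11.6, 11.9 and 15.7 CPM in AFX EpiSCs and at 15.5, 20.9 and 26.6 CPM in AF EpiSCs. The ES library of passage 12, the one with the high mt-Rnr2 share, exceeded all FS and AFX libraries. Bambi was 1.67-fold higher in AF EpiSCs than in ES cells (log2 fold change 0.74 ± 0.30, SE, edgeR adjusted p = 0.0416), although the groups overlapped. Of the 16 fits that left out 1 library 8 kept this call, with adjusted p up to 0.189 without the AF library of passage 14. Without the ES library of passage 12 the difference was 1.20 (adjusted p = 0.000164), and the FS to ES and AFX to ES differences then passed too, at 0.65 (adjusted p = 0.00656) and 0.52 (adjusted p = 0.0468) against 0.20 and 0.06 with it. So did the FS to AF difference of -0.55 (adjusted p = 0.0363).

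Among the 4 ES libraries, Id1 and Smad6 rose and Id4 and Bambi fell at each step from passage 12 to 13, 15 and 20. Of all tested genes 13.3% had such a strict order. From the first to the last of these passages Id1 went from 2.14 to 6.76 CPM, Id4 from 24.7 to 12.3 CPM, and Bambi from 23.1 to 7.31 CPM. The first of them is the library with the high mt-Rnr2 share. At passage 13 Id1 was at 2.66 CPM, Id4 at 21.4 CPM and Bambi at 11.4 CPM, so most of the fall of Bambi lay in the step from that library. Each passage is 1 library, so no test was made.

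**Figure D4:**
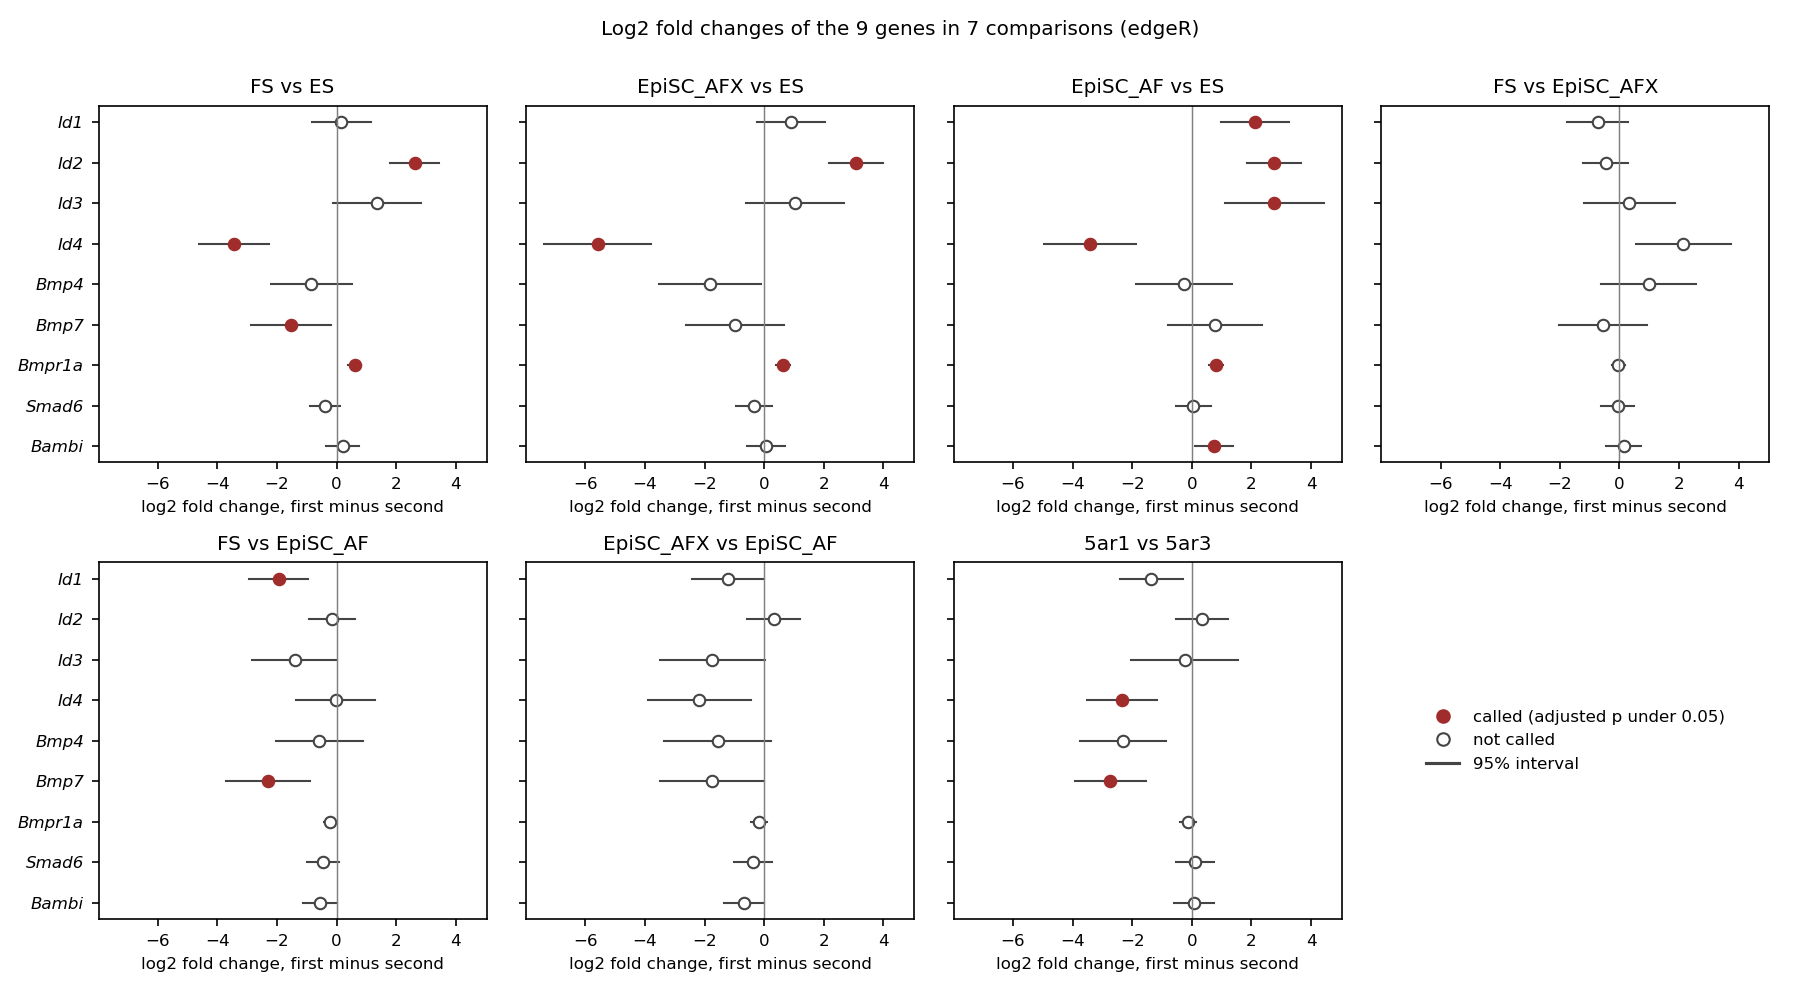
Log2 fold change of the 9 genes in each of 7 comparisons (first named group minus second, with 95% intervals). Filled points passed edgeR's test at an adjusted p under 0.05, and open points did not.

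The 2 FS lines differed in Id4 and Bmp7, which were lower in 5ar1. Line 5ar1 had 0.271, 0.446 and 1.04 CPM of Id4, and line 5ar3 had 1.33, 1.98 and 5.49 CPM. Neither Id4 nor Bmp7 overlapped between the lines, and Id1 did not either, with 1.91, 1.96 and 3.18 CPM against 4.09, 6.93 and 7.21 CPM (18.7% of all tested genes separated the lines). Id4 was 5.07-fold lower in 5ar1 (log2 fold change -2.34 ± 0.55, SE, edgeR adjusted p = 0.0245) and Bmp7 6.64-fold lower (-2.73 ± 0.56, adjusted p = 0.0108). Id1 did not pass (-1.36 ± 0.50, adjusted p = 0.152), nor did Bmp4 (-2.30 ± 0.68, adjusted p = 0.0733), which passed without the library 5ar3 passage 12 (adjusted p = 0.0282) and under DESeq2 (adjusted p = 0.0105). With passage as a covariate Id1 passed at -2.24 (edgeR adjusted p = 0.0104).

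The differences of Id4 and Bmp7 between the lines depended on single libraries. Without 5ar1 passage 12, 5ar1 passage 14 or 5ar3 passage 4, the adjusted p of Id4 was 0.121, 0.135 and 0.171 and that of Bmp7 was 0.0612, 0.0604 and 0.0539. With passage as a covariate, where Id1 gained a call, Id4 and Bmp7 lost theirs (adjusted p = 0.165 and 0.0837). The lines differ in passage as well as derivation, and the neuroectoderm marker sum separates them as given above. The surface ectoderm or amnion sum separated them in the other direction, with 134 to 232 CPM in 5ar1 and 60.9 to 103 CPM in 5ar3. Of its markers, Krt8 was 3.15-fold and Krt18 2.11-fold higher in 5ar1 (edgeR adjusted p = 0.00696 and 0.0483). Tfap2a of that list did not pass, with a mean of 0.128 CPM in 5ar1 and 0.209 CPM in 5ar3, and Krt5 was too low to be tested. The pluripotency gene Pou5f1 was 2.17-fold higher in 5ar1 (edgeR adjusted p = 0.00262). The part of any of these in the differences was not tested.

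The rest of the pathway was described with 8 lists of 69 genes, of which 61 were tested and which include the 9 genes. Between FS and ES cells 26 were higher, 13 lower and 22 did not pass, with a median log2 fold change of 0.74 against 0.04 over all genes. Of all tested genes 32.9% were higher and 29.9% lower there. AFX EpiSCs against ES cells gave 29 higher and 10 lower (28.5% and 26.2% of all genes), and AF EpiSCs against ES cells 40 higher and 10 lower (29.7% and 27% of all genes).

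Among the receptors, 7 of 11 were higher and 2 lower in FS than in ES cells (32.9% and 29.9% of all genes). The type I receptor Bmpr1b rose from 0.0851 ± 0.0981 CPM (SD, n = 4) in ES cells to 4.39 ± 0.928 CPM (n = 6) in FS cells (log2 fold change 5.61 ± 0.47, SE, edgeR adjusted p = 1.80e-08), and the co-receptor gene Hfe2 was higher by 4.45 ± 0.41. The type II receptors Acvr2b (1.47 ± 0.18), Bmpr2 (0.88 ± 0.16) and Acvr2a (0.87 ± 0.15) were higher as well. The co-receptor Eng, known from endothelial cells, fell from 21.7 ± 5.99 CPM to 0.528 ± 0.169 CPM (-5.36 ± 0.30, adjusted p = 8.53e-11). Set against the same ES libraries, Bmpr1b had 4.98 ± 0.50 in AFX and 5.15 ± 0.50 in AF EpiSCs, and Eng -4.44 ± 0.37 and -4.89 ± 0.38.

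All 4 SMAD genes of the lists outside the inhibitors, Smad1, Smad5 and Smad9 with their partner Smad4, differed between FS and ES cells, where 62.8% of all tested genes did. Smad5 (1.09 ± 0.11), Smad4 (0.74 ± 0.12) and Smad1 (0.60 ± 0.14) were higher in FS cells on the log2 scale. Smad9 was lower, with 90 to 224 counts in each ES library (6.22 to 9.52 CPM) against 2 or 3 counts in each FS library (edgeR adjusted p = 4.22e-11). Of the E proteins, Tcf12 was higher (1.05 ± 0.13) and Tcf4 lower (-0.61 ± 0.14), while Tcf3 did not pass (-0.03 ± 0.12).

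Of the 8 ligands tested, 4 were higher and 2 lower in FS than in ES cells (32.9% and 29.9% of all genes). Apart from Bmp4 and Bmp7 none had a mean above 1 CPM in either group. Bmp5 was at 0 counts in every ES library and at 0.250 ± 0.236 CPM (SD, n = 6) in FS cells. Bmp8b had at most 3 counts in any ES library and 11 to 37 counts in each FS library (0.960 ± 0.333 CPM). Its paralog Bmp8a went from 0.9749 ± 0.450 CPM (SD, n = 4) in ES cells to 0.238 ± 0.112 CPM in FS cells (log2 fold change -1.99 ± 0.41, SE, edgeR adjusted p = 0.00046). Such close copies can share reads, so the Bmp8a and Bmp8b values are uncertain. Of the 10 other BMP-responsive genes tested, Hey1 (2.55 ± 0.28) was higher, as was Atoh8 at counts near 0 with overlapping libraries, and Gata2 (-4.72 ± 0.65), Cdx2 (-4.50 ± 0.82) and Tfap2a (-3.54 ± 0.55) lower in FS cells. Cdx2 was low in both groups, with 8 to 17 counts in each ES library and at most 4 in any FS library.

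Of the intracellular inhibitors, Smad7 was 3.45-fold and Tob1 3.20-fold lower in FS than in ES cells. The ubiquitin ligase gene Smurf2 was 1.73-fold and Skil, a repressor of SMAD transcription, 3.40-fold higher. Smurf1 and Ski did not pass (log2 fold changes 0.13 and 0.02). In this list the median was 0.13 against 0.04 over all genes.

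Of the 12 secreted inhibitors tested, 6 were higher and 1 lower in FS than in ES cells (32.9% and 29.9% of all genes). In AFX EpiSCs 6 were higher and none lower than in ES cells (28.5% and 26.2% of all genes), and in AF EpiSCs 10 and none (29.7% and 27% of all genes). Chrdl1, which binds BMP4, was at 0 counts in all ES libraries and at 2.63 to 8.29 CPM in FS cells, at least 35.5-fold higher when set against 3 counts in each ES library. Fst, the activin and BMP binder follistatin, was instead 3.70-fold lower in FS than in ES cells (log2 fold change -1.89 ± 0.41, SE, edgeR adjusted p = 0.000618). Set against genes of 3 counts or fewer at their lower limit, the list's median for FS over ES cells was 2.097, and 2.73 as fitted.

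**Figure D5:**
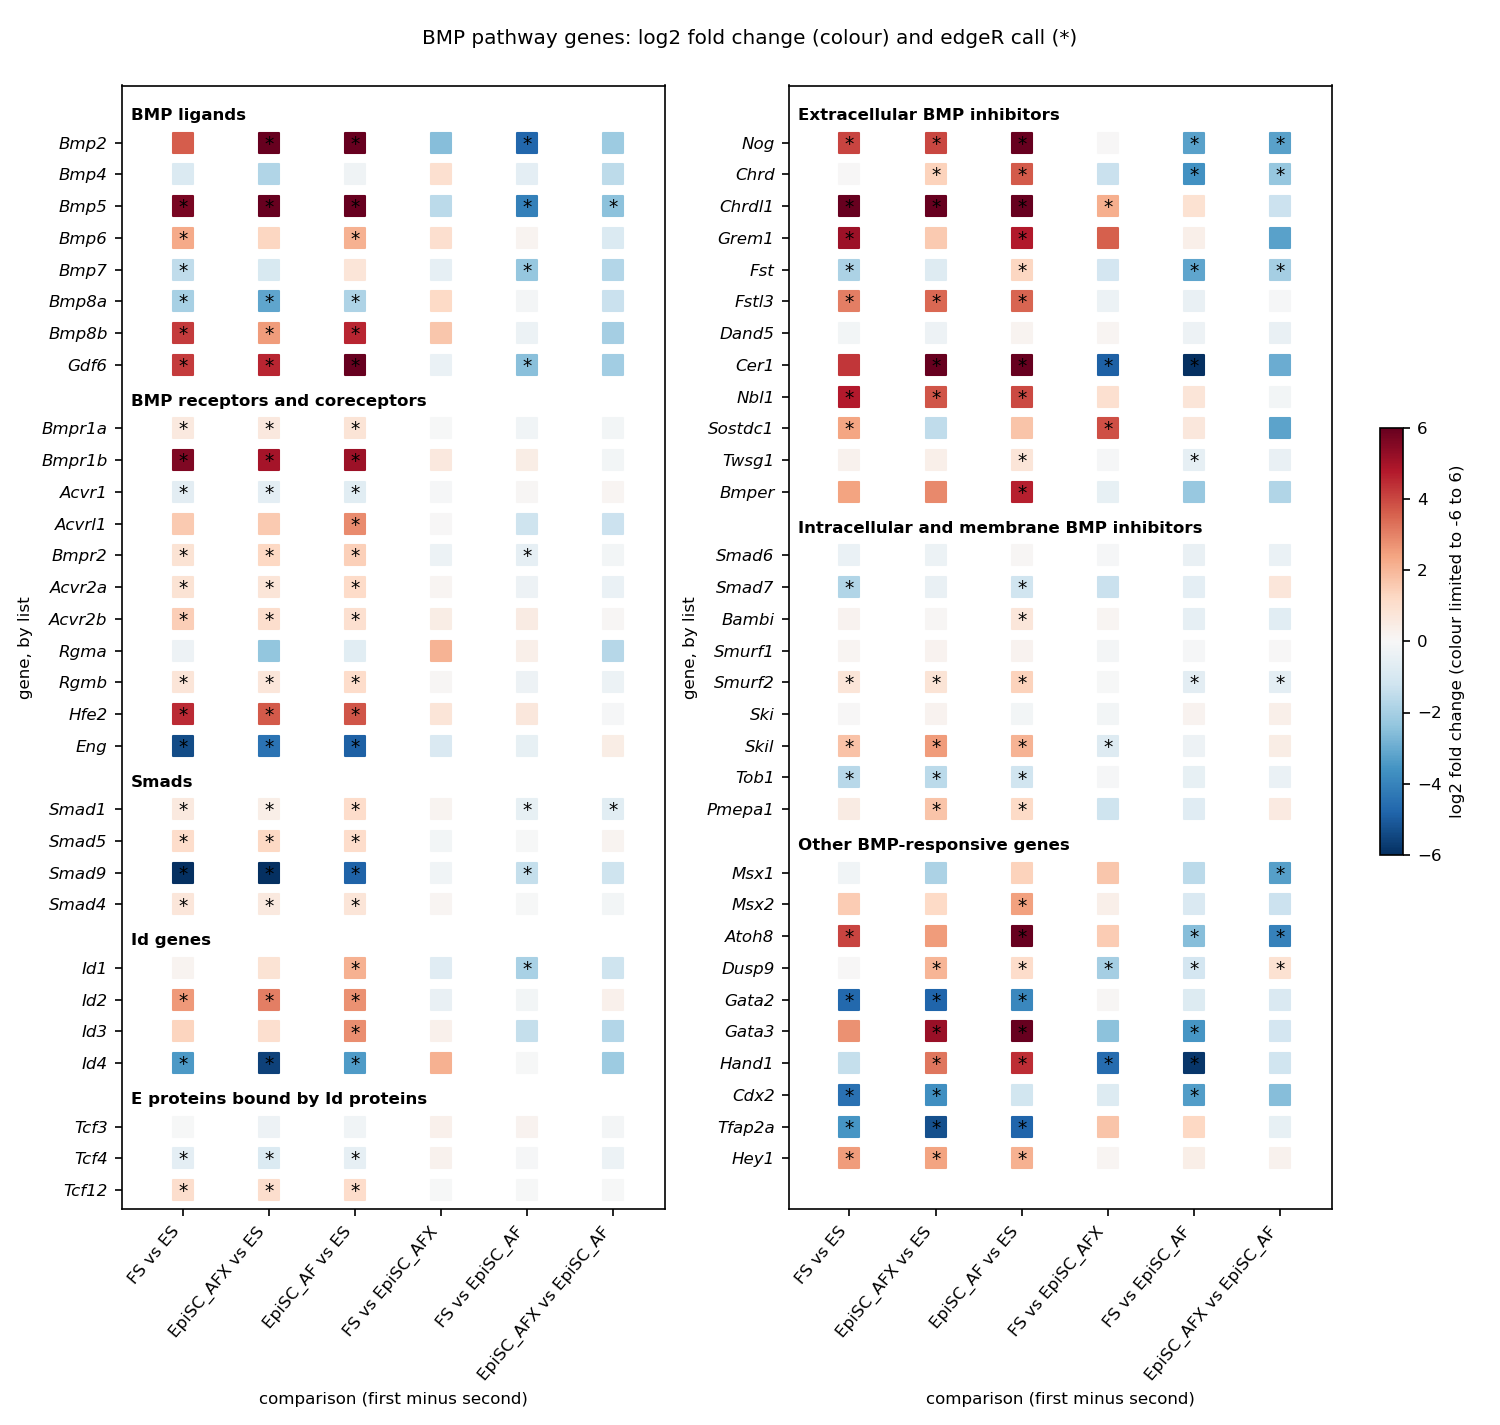
Log2 fold change (colour, limited to -6 to 6) of 61 tested genes of the BMP pathway lists in the 6 comparisons between culture groups, with an asterisk where edgeR's adjusted p was under 0.05. The columns against ES cells hold most of the asterisks, and all of those in the column of FS cells against AF EpiSCs are lower values.

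Against AF EpiSCs, 19 of the 61 pathway genes were lower in FS cells and none was higher, where 7.84% of all tested genes were higher and 8.81% lower. The largest change was that of a secreted inhibitor. Cer1, an inhibitor of Nodal, BMP and Wnt made by anterior visceral endoderm, was at 134, 235 and 375 CPM in AF EpiSCs and at 0.0319 CPM (lowest), 0.774 CPM (median) and 3.39 CPM (highest) in FS cells (log2 fold change -7.88 ± 1.22, SE, edgeR adjusted p = 0.000334). Chrd (-3.63 ± 0.45) and Nog (-3.24 ± 0.64), the BMP antagonists of the node, were lower as well, as was Fst (-3.16 ± 0.43).

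The ligands Bmp2 (log2 fold change -4.75 ± 0.91) and Bmp5 (-4.09 ± 0.53) were also lower in FS cells than in AF EpiSCs, with Gdf6 (-2.50 ± 0.54) and Bmp7. So were the BMP-responsive genes Hand1 (-5.83), Gata3, Cdx2, Atoh8 and Dusp9. Cdx2 rested on few counts, at most 4 in any FS library and 1 to 19 in the AF libraries, and the groups overlapped. The endoderm and primitive streak marker sums were highest in AF EpiSCs too, and the part of such cells in these values was not tested. Bmp2 followed the same libraries, with 9.64, 12.8 and 18.7 CPM in AF EpiSCs, 8.30 CPM in the AFX library of passage 12, and 0.357 and 0.373 CPM in the other AFX libraries. Without the AF library of passage 14 the 19 genes became 12.

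Between FS cells and AFX EpiSCs 6 pathway genes passed, 2 higher and 4 lower in FS cells, where 2.89% of all genes were higher and 2.1% lower. Chrdl1 (2.19 ± 0.40 on the log2 scale) and Sostdc1 were higher in FS cells, and Cer1 (-4.89 ± 1.13), Hand1, Dusp9 (-2.04 ± 0.21) and Skil (-0.78 ± 0.18) were lower. Dusp9, a MAP kinase phosphatase that BMP induces in ES cells, was at 35.3, 40.7 and 58.7 CPM in AFX EpiSCs and 8.87 to 14.5 CPM in FS cells, with no overlap (9.89% of all tested genes separated these groups). Leaving out the AFX library of passage 8 left 3 genes.

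Between AFX and AF EpiSCs 1 of the 61 was higher and 8 lower in AFX, where 1.43% of all genes were higher and 2.83% lower. Dusp9 was higher (log2 fold change 0.93 ± 0.25), and Nog (-3.27 ± 0.82), Atoh8, Msx1, Bmp5 (-2.47 ± 0.62), Chrd (-2.30 ± 0.55), Fst (-2.03 ± 0.53), Smad1 and Smurf2 were lower. This count depended on single libraries and was 4, 1 and 2 without the AF library of passage 13, 14 and 15, and 1 and 0 without the AFX library of passage 5 and 8.

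Between the FS lines 7 of the 61 passed, 2 higher and 5 lower in 5ar1, where 1.86% of all genes were higher and 2.02% lower. Grem1 (log2 fold change -3.24 ± 0.59), Rgma (-3.24 ± 0.66) and Nbl1 (-1.87 ± 0.40) were lower in 5ar1 together with Bmp7 and Id4, and Hey1 (0.94 ± 0.21) and Skil (0.66 ± 0.14) were higher. Rgma, a BMP co-receptor also known from axon guidance, was at 1.12, 1.24 and 3.45 CPM in 5ar1 and 10.7, 20.4 and 23.5 CPM in 5ar3. The count ranged from 1 without 5ar1 passage 12 to 11 without 5ar3 passage 12, with 3 without 5ar1 passage 14 and 2 without 5ar3 passage 4.

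The genes whose levels ran most like each member were found by the root mean square difference of mean-centred log2 CPM over the 16 libraries, among 14804 genes. A smaller value means a closer run. Id2 was closest to 1500009L16Rik (0.45), Nap1l2 (0.46) and Fam208b (0.46), and its own standard deviation was 1.32. Id4 was closest to Plpp3 (0.59), Dner (0.67) and Fsd1l (0.67), against a standard deviation of 2.18. For Id1 these were Sulf1 (0.53), 1700088E04Rik (0.53) and Elmo1 (0.61), and for Id3 Ccdc96 (0.79), Dnah11 (0.88) and Mxd4 (0.91). Bmp4 ran closest to Csrnp3 (0.68) and Bmp7 to Cfap45 (0.69). Bmpr1a was nearest to Rtn3 (0.10), Smad6 to Spg7 (0.19) and Bambi to Mtrf1 (0.20). The libraries of a line are not independent, so these values are descriptions.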

How the data were processed

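Bulk RNA sequencing libraries of 16 cultures were analysed. The authors deposited 1 table of whole-number read counts per gene. Per the submitters' processing notes, Trim Galore, TopHat2 2.1.0 and featureCounts 1.5.0 were used on mm10. Per the labels' protocols, total RNA was made into libraries with a directional kit. The strand setting of the counting is not given in the sources used here. The table holds 6 further sample columns that match no sample here and were not used.

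From these counts, genes kept by filterByExpr were scaled by TMM and tested with edgeR 4.0.16 (glmQLFit, glmQLFTest) under R 4.3.3, with a mean per group over all libraries and Benjamini-Hochberg adjustment within each comparison. The line comparison used a mean per line. The 95% intervals are of the log2 fold change. Counts of libraries of 1 line differed beyond sampling noise (chi-square over its degrees of freedom at least 8.40), so none was treated as a repeat deposit, which does not make passages of 1 culture independent. Alternatives were other scalings and filters, DESeq2 1.42.0, a test against a log2 change of 1, passage as a covariate, single FS lines, only the groups compared, and leaving out each library. The fit was tested on simulated counts.

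The members and the gene lists were chosen with earlier results of these data known. All 9 members are named. From the lists, the called genes with the largest changes in each direction are named, at most 3 a direction, with genes that a sentence on a member turns on.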

Additional observations from a re-analysis of the deposited data

Results flagged for a closer look

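In FS cells 3 values stood apart from the other 5 libraries of the group by more than Dixon's limit. Line 5ar3 at passage 4 had the highest Id4 level, 5.49 CPM, and the highest Bmp4 level, 8.69 CPM. Line 5ar3 at passage 5 had the highest Bmpr1a level, 199 CPM. Chance gives such a gap in about 1 in 20 groups, and 18 pairs of a gene and a group were looked at.

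The change against ES cells differed between the FS lines, by edgeR's test of line 5ar1 against line 5ar3. The difference was -2.34 on the log2 scale for Id4 (adjusted p = 0.0245) and -2.73 for Bmp7 (adjusted p = 0.0108), both lower in 5ar1. Against ES cells Bmp7 did not pass with line 5ar3 alone (-0.71, edgeR adjusted p = 0.183). Both line differences lost their calls without 5ar1 passage 12, 5ar1 passage 14 or 5ar3 passage 4, and with passage as a covariate.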

How the results depend on the processing

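Of 583 log2 fold changes of the 9 genes under alternatives that kept all libraries or chose lines, 540 kept their side of the threshold. A call was lost in 22 and gained in 21, and none that passed turned. Of 1008 with 1 library left out, these were 967, 29 and 12, and again none that passed turned. Of those that kept their side without a call, 11 of the 540 and 32 of the 967 changed sign.

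The count of the 9 genes that passed was 2 for FS over ES cells when tested against a log2 change of 1, and 5 for AFX EpiSCs over ES cells with passage as a covariate. Between FS cells and AFX EpiSCs it was 1 with DESeq2, with passage and with 5ar3 alone (Id4), and 1 with 5ar1 alone (Bmp7). Between FS cells and AF EpiSCs it was 1 without the filter, with passage, with only these groups and with 5ar3 alone, 4 with 5ar1 alone and 0 against a log2 change of 1. Between AFX and AF EpiSCs it was 1 with DESeq2, 1 with passage (Id4 in both) and 2 with only these groups (Id4 and Bmp4). Between the FS lines it was 1 without the filter, 1 with passage (Id1 in place of Id4 and Bmp7), 0 against a log2 change of 1 and 0 with only the FS libraries, where Id4 did not pass the filter. The cause was not tested.

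With 1 library left out, the count ran from 3 to 5 for FS over ES cells, 3 to 4 for AFX and 5 to 6 for AF EpiSCs over ES cells, 0 to 1 for FS cells against AFX EpiSCs, 0 to 3 against AF EpiSCs, 0 to 1 between the EpiSC groups and 0 to 3 between the FS lines. For the pathway lists the counts ran from 38 to 41, 35 to 42, 45 to 50, 3 to 9, 12 to 20, 0 to 11 and 1 to 11 in the same order.

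The pathway counts moved to 24 (AFX EpiSCs over ES cells), 31 (AF EpiSCs over ES cells), 1 (FS cells against AFX EpiSCs), 8 (FS cells against AF EpiSCs), 0 (between the EpiSC groups) and 1 (between the FS lines) against a log2 change of 1. With only the groups compared they were 3, 12, 15 and 1 for the last 4 of these. For FS cells against AFX EpiSCs the count was 11 with DESeq2 and 11 with a mean per line, and between the FS lines it was 4 with passage.

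Scaling by total counts moved the median of all genes from 0.04 to 0.40 for FS over ES cells, to 0.25 for AFX and 0.29 for AF EpiSCs over ES cells, to 0.16 for FS cells over AFX EpiSCs and to 0.13 over AF EpiSCs. Under it Bmp7 lost its call between FS and ES cells (adjusted p = 0.0992) and Bambi gained one (adjusted p = 0.0152, edgeR). No paired analysis was possible because replicate numbers only follow the order of the samples and pair no cultures across groups. Genes of a few counts per library, such as Id4 in AFX EpiSCs, are limited by counting error.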
